A study of Mus musculus with 7 samples.

Results

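The genes described are those of the proteasome, taken as every symbol of the deposited tables that consists of Psm, a letter from a to g, a number and at most further letters or digits, without the immunoproteasome genes Psmb8, Psmb9 and Psmb10. A hyphen is outside this pattern, so the entry Psmb7-ps2 (mean normalised counts of 1.23 and 0.274) was not taken. The rule found 48 of 30899 symbols. Of these, 16 were core genes (Psma and Psmb), 20 were cap genes (Psmc and Psmd), 6 were activators or the inhibitor (Psme and Psmf1), and 4 were chaperones of core assembly (Psmg). The other 2, Psmc3ip and Psme3ip1, are named after the subunits that their proteins bind, are not subunits, and were counted apart. A mean of at least 10 normalised counts was required for a test, which 47 of the 48 met. The label of constitutive subunit holds for 31 of the 36 core and cap genes. Psma8, a testis form of the alpha ring, and Psmb11, the thymus form of a catalytic subunit, are kept to other tissues, and Psmd5, Psmd9 and Psmd10 encode chaperones that leave the finished cap.

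The proteasome degrades proteins that carry ubiquitin chains. Its core is a barrel of stacked rings, in which the outer alpha rings gate the entry and the inner beta rings hold the cleaving sites. Caps at the ends of the barrel bind ubiquitin chains, remove them, unfold the substrate with a ring of ATPases and thread it inside. The subunits are needed in fixed proportion, and in mammals their genes share the transcription factor NRF1 (Nfe2l1) as an inducer when proteasome activity falls. In endothelium and other cells, inflammatory signals exchange the catalytic beta subunits for those of the immunoproteasome.

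Endothelial cells were isolated with beads from mouse skeletal muscle, and their RNA was sequenced in bulk with no treatment. The wild-type group had 3 libraries and the group labelled as an endothelial GLUT1 knockout had 4. Strain, age, the driver of the deletion and whether each library came from its own mouse are not given in the sources used here, so a p-value covers no more than the variation among these 7 libraries, which may be technical. Slc2a1, which encodes GLUT1, was not lower in the group labelled knockout, with 1127 ± 123 (SD, n = 3) and 1075 ± 263 (SD, n = 4) normalised counts (log2 fold change -0.09, SE 0.18, adjusted p = 0.738). That group is therefore called knockout-labelled, and all directions below depend on that label.

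Endothelial markers were present in every library: the 10 genes of that list, Pecam1 and Cdh5 among them, summed to 88515 to 114532 normalised counts in wild type, against 118016 to 131379 under the knockout label. Of these 10 genes 2 were called higher, Emcn and Erg. Egfl7 was called lower by limma (log2 fold change -0.47, adjusted p = 0.0349), and the other 7 were not called. Several marker lists of other cells did not overlap between the groups. The 8 smooth muscle and pericyte genes summed to 39493 to 52145 and 64784 to 73493, the 5 Schwann cell genes to 14985 to 19332 and 26504 to 35973, the 9 fibroadipogenic genes to 6936 to 11399 and 15464 to 19784, and the 5 satellite cell genes to 249.7 to 417 and 593 to 734. In the first of these lists 4 of 8 genes were called higher, Acta2, Myh11, Tagln and Cnn1, while the pericyte genes Rgs5, Pdgfrb and Kcnj8 overlapped, at log2 fold changes of -0.02, 0.06 and -0.03. Of the 9 fibroadipogenic genes 4 were called higher, Col1a1, Col1a2, Col3a1 and Ly6a. In that list 7 estimates were above 0 and 2 below, Pdgfra at -0.32 and Pi16 at -0.27, both with overlapping groups. The 10 macrophage genes summed to 1020 to 1064 and 1109 to 1315, most of it from Mertk (718 to 1083 over the 7 libraries). Of the 6 macrophage genes tested 3 estimates were above 0 and 3 below, with a median of -0.03. Among them Lyz2 rose (log2 fold change 1.67), and Cd68 was lower in all 4 knockout-labelled libraries (-1.19, adjusted p = 0.058). The 6 T and B cell genes were lower in the knockout-labelled libraries, at 54.2 to 59.3 against 105 to 205. The sums of the 5 erythroid genes (1757 to 5507 and 4397 to 20253) and the 10 muscle fibre genes (300.3 to 697 and 493 to 729) overlapped. All 5 erythroid genes were still called higher by limma, with log2 fold changes of 1.53 to 1.94 and a median of 1.75. Of the 10 muscle fibre genes 0 were called, and over all tested genes 5.98% were called higher. No list had all members at 0, and 1 T and B cell gene was at 0 in all 4 knockout-labelled libraries. In bulk RNA, fewer cells of a type and less RNA per cell cannot be told apart, and the part of these lists in the results that follow was not tested. Library totals were 11855652 to 13441728 normalised counts in wild type, against 14592369 to 15731074 under the knockout label. The mean log2 value of olfactory and vomeronasal receptor genes (1153 genes, not known as endothelial genes) was 2.12 to 3.19 and 1.36 to 1.73.

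A part of the core and cap genes was called higher in the knockout-labelled libraries, and none was called lower. Of 15 core genes tested, 5 rose, 0 fell and 10 did not pass, and 14 of the 15 estimates were above 0. Of 20 cap genes, 8 rose, 0 fell and 12 did not pass, with 19 estimates above 0. Over all 16931 tested genes 5.98% were called higher and 5.53% lower, and 51.8% of estimates were above 0. The median log2 fold change, knockout-labelled minus wild type, was 0.50 for the core genes and 0.41 for the cap genes, beside 0.02 for all tested genes. The difference between core and cap was not tested. The groups did not overlap for 10 of the core genes and 13 of the cap genes, which were then higher in all 4 knockout-labelled libraries. Over all tested genes this held for 14.7%. Calls were made by limma with a Benjamini-Hochberg adjusted p of at most 0.05 over all tested genes.

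The counts of called core and cap genes depended on single libraries, as did the calls over all genes. Both medians stayed above 0 in each of 22 alternative settings. Some of these settings, such as limma without trend, leave the estimates unchanged and so cannot move a median. Core and cap genes called higher numbered 0 and 0 without wild-type library 1, 3 and 2 without wild-type library 2, 6 and 7 without wild-type library 3, 0 and 1 without knockout-labelled library 1, 2 and 3 without library 2 of that group, 3 and 4 without its library 3, and 0 and 1 without its library 4. Calls of higher over all tested genes fell as well, from 1013 as reported to 19 without wild-type library 1. They numbered 602 and 995 without wild-type libraries 2 and 3 in turn. Without knockout-labelled libraries 1 to 4 in turn they numbered 225, 686, 858 and 243. Scaling every library to the same total shifted the all-gene median to -0.21. Under that scaling the counts were 0 core and 1 cap, the medians 0.27 and 0.18, and the calls over all genes 228 higher and 1645 lower.

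**Figure D1:**
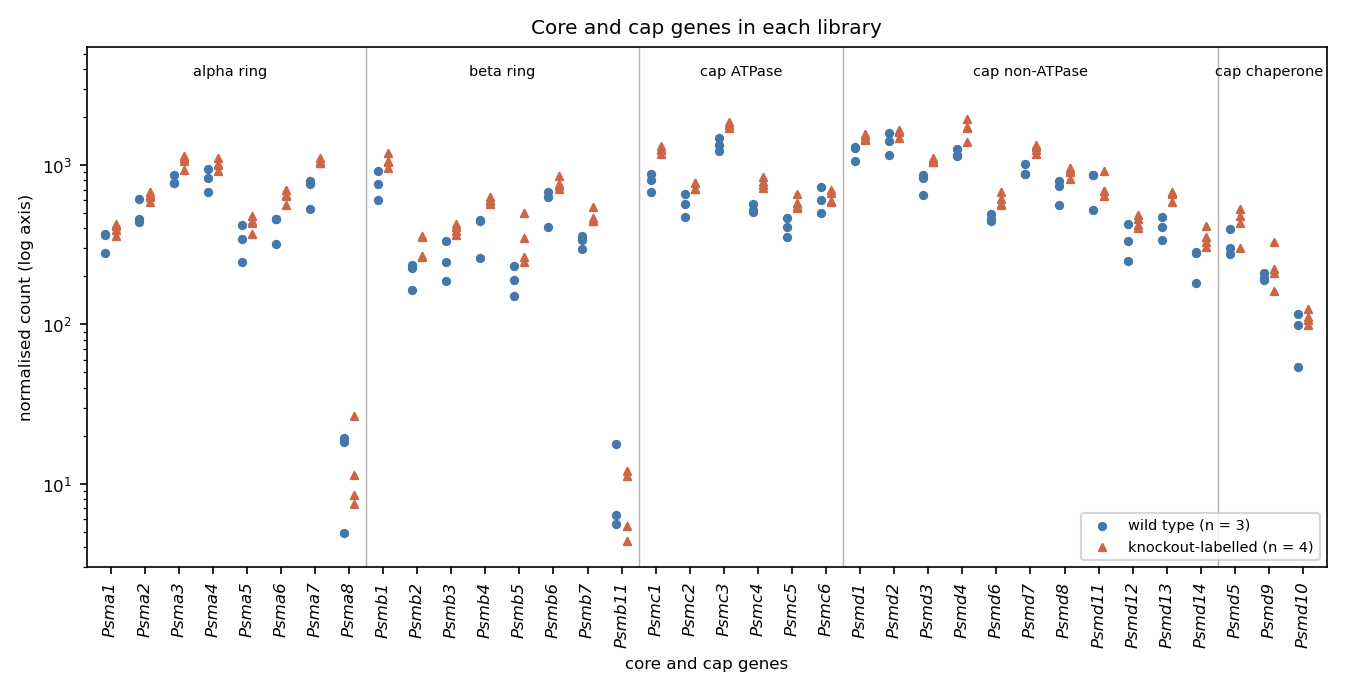
Normalised counts (log axis) of the 36 core and cap genes, grouped by role, in the 3 wild-type libraries (blue circles) and the 4 knockout-labelled libraries (orange triangles). For 23 genes every triangle lies above every circle, and Psma8 and Psmb11 lie far below the other genes.

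Summed over the 15 tested core genes, the share of each library's total was 0.0453%, 0.0510% and 0.0569% in wild-type libraries 1 to 3, against 0.0574%, 0.0606%, 0.0612% and 0.0648% in knockout-labelled libraries 1 to 4. For the 20 cap genes the shares were 0.0980%, 0.104% and 0.106% in the wild-type libraries, against 0.111%, 0.117%, 0.114% and 0.117% in the knockout-labelled libraries. Neither class overlapped between the groups, and wild-type library 3 lay close to knockout-labelled library 1 in the core share. Mean shares came to 0.0511% ± 0.0058 (SD, n = 3) and 0.0610% ± 0.0030 (SD, n = 4) for the core, and 0.103% ± 0.0042 and 0.115% ± 0.0029 for the cap. Wild-type library 1 was the lowest of the 7 libraries for 29 of the 35 tested core and cap genes, as it was for 27.3% of all tested genes and 40.9% of protein-coding genes averaging 100 or more. A knockout-labelled library was the highest for 34 of the 35, and knockout-labelled library 4 for 21 of them. Some knockout-labelled library was the highest for 55.5% of all tested genes and 70% of the protein-coding ones averaging 100 or more. The same wild-type library had the smallest total, 11855652, and the highest receptor gene value, 3.19.

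**Figure D2:**
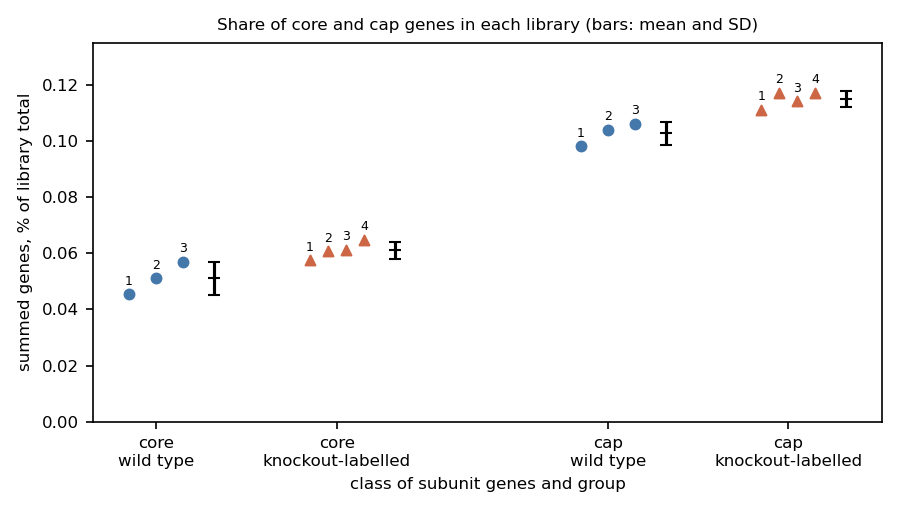
Share of the library total (%, axis from 0) taken by the summed core genes and cap genes in each library, numbered by replicate, with the mean and SD of each group in black. Wild-type library 1 is lowest in both classes, at 0.0453% and 0.0980%, and all 4 knockout-labelled libraries lie above the 3 wild-type libraries.

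The alpha ring closes the barrel and docks the cap. Among its 8 genes 2 rose, and the median log2 fold change was 0.37. Psma7 had normalised counts of 533, 789.6 and 760.3 in the wild-type libraries, against 1049, 1026, 1033 and 1106 in the knockout-labelled ones. All 4 knockout-labelled values lay between 1026 and 1106, above the highest wild-type value. The change was called (log2 fold change 0.62, SE 0.15, adjusted p = 0.0267). Psma6 was at 319, 459.5 and 459 in the wild-type libraries, against 696, 560.4, 638 and 649 in the knockout-labelled ones. Its groups were also apart, with wild-type library 1 well below the other 2 (log2 fold change 0.64, SE 0.17, adjusted p = 0.0325). Psma3 was at 767, 771 and 868 in the wild-type libraries, against 930.4, 1063, 1134 and 1112 in the knockout-labelled ones, with no overlap between the groups, and did not pass (log2 fold change 0.40, SE 0.13, adjusted p = 0.0661). The remaining constitutive alpha genes overlapped between the groups and did not pass, with log2 fold changes of 0.24 for Psma1, 0.31 for Psma4, 0.35 for Psma2 and 0.39 for Psma5. Psma8 was at 18.3, 4.91 and 19.3 in the wild-type libraries, against 7.45, 11.4, 8.46 and 26.5 in the knockout-labelled ones, low throughout, and its interval of -1.50 to 1.42 leaves the direction undetermined.

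The beta ring carries the cleaving sites, and the groups did not overlap for any of its 7 tested genes, with the knockout-labelled libraries higher. Over all tested genes this held for 14.7%. The median exonic length of these beta genes was 1951 bases. Among protein-coding genes of 1000 to under 2000 bases averaging 100 normalised counts or more, it held for 51.6%. Psmb2, Psmb4 and Psmb6 are in that length class. In the classes of the other beta genes it held for 59.7% under 1000 bases (Psmb5), 29.9% from 2000 to under 4000 (Psmb3 and Psmb7) and 17.5% from 4000 to under 8000 (Psmb1). Of the 7 beta genes, 3 rose and 4 did not pass, with a median log2 fold change of 0.57 and a range of 0.45 to 0.80. Among the catalytic subunits, Psmb5, which cleaves after hydrophobic residues, was at 150.4, 189 and 231 in the wild-type libraries, against 264, 346, 247 and 503 in the knockout-labelled ones. Knockout-labelled library 4 was the highest of all 7 and library 3 of that group lay just above the top wild-type value. The estimate for Psmb5 was the largest of all 47 tested members but missed the threshold (log2 fold change 0.80, SE 0.25, adjusted p = 0.0522). Psmb6, the caspase-like subunit, was at 408, 630.3 and 675 in the wild-type libraries, against 737, 760.4, 707 and 856 in the knockout-labelled ones, so the groups were apart only through a narrow gap, and it did not pass (log2 fold change 0.45, SE 0.18, adjusted p = 0.102). Psmb7, the trypsin-like subunit, was at 296, 337 and 356 in the wild-type libraries, against 466, 448, 448 and 546 in the knockout-labelled ones. It was higher in all 4 knockout-labelled libraries and was called (log2 fold change 0.53, SE 0.16, adjusted p = 0.0459).

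Of the structural beta genes, Psmb4 was at 263, 454 and 442 in the wild-type libraries, against 573, 629, 599.7 and 595 in the knockout-labelled ones, a tight set in the second group and a low wild-type library 1 (log2 fold change 0.67, SE 0.19, adjusted p = 0.0392). Psmb3 was at 187, 246 and 331 in the wild-type libraries, against 428, 411, 385 and 364 in the knockout-labelled ones and was also called (log2 fold change 0.67, SE 0.20, adjusted p = 0.0438). Psmb1 and Psmb2 did not pass, with log2 fold changes of 0.50 (SE 0.16, adjusted p = 0.0555) and 0.57 (SE 0.20, adjusted p = 0.0753). Psmb11, the thymus form, was not tested, with overlapping counts of 17.8, 5.61 and 6.33 in the wild-type libraries, against 5.46, 4.4, 11.1 and 12 in the knockout-labelled ones.

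Of the 6 genes of the ATPase ring of the cap, which unfolds the substrate, 4 rose. Psmc1 was at 681, 801 and 873 in the wild-type libraries, against 1269, 1236, 1314 and 1167 in the knockout-labelled ones. Its lowest knockout-labelled value was 1167 and its highest wild-type value 873 (log2 fold change 0.67, SE 0.13, adjusted p = 0.0147). Psmc1 was called in 18 of the 23 fits, more than any other core or cap gene. Psmc4 was at 508, 572 and 524 in the wild-type libraries, against 836.5, 745, 713 and 778 in the knockout-labelled ones, again with a clear gap (log2 fold change 0.52, SE 0.14, adjusted p = 0.0327). Psmc3 and Psmc5 rose by 0.41 (SE 0.12, adjusted p = 0.0468) and 0.51 (SE 0.16, adjusted p = 0.0499). Psmc2 did not overlap between groups and did not pass (log2 fold change 0.39, adjusted p = 0.095). Psmc6 was at 500.4, 732 and 606 in the wild-type libraries, against 672, 696, 593 and 589.8 in the knockout-labelled ones, with the highest value in wild-type library 2. It overlapped, and its change was small and not called (log2 fold change 0.07, 95% interval -0.27 to 0.41, adjusted p = 0.786).

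The non-ATPase subunits of the cap bind ubiquitin chains, remove them and hold the cap together. Of 11 genes 4 rose, with a median log2 fold change of 0.43. Psmd13, a lid subunit, was at 339, 408 and 473 in the wild-type libraries, against 660.5, 666, 584 and 677 in the knockout-labelled ones. The groups were well apart, and wild-type library 1 was the lowest (log2 fold change 0.68, SE 0.16, adjusted p = 0.0219). Psmd4, a ubiquitin receptor, was at 1146, 1162 and 1261 in the wild-type libraries, against 1714, 1734, 1400 and 1938 in the knockout-labelled ones. Its wild-type libraries differed little, and the 4 other libraries were all above them (log2 fold change 0.50, SE 0.14, adjusted p = 0.0348). Psmd3 and Psmd7, both lid subunits, rose by 0.47 (SE 0.14, adjusted p = 0.0469) and 0.45 (SE 0.13, adjusted p = 0.0399). Psmd14, the deubiquitinase of the lid, was at 182, 286 and 282 in the wild-type libraries, against 351, 328, 305 and 414 in the knockout-labelled ones. Its groups were apart, but the change did not pass (log2 fold change 0.50, SE 0.20, adjusted p = 0.107). Psmd2, the large base subunit that receives shuttle proteins, was at 1149, 1586 and 1406 in the wild-type libraries, against 1603, 1660, 1477 and 1617 in the knockout-labelled ones. These values overlapped and were not called (log2 fold change 0.21, 95% interval -0.08 to 0.51, adjusted p = 0.289).

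Psmd11, a lid subunit, was the only cap gene with an estimate below 0. It stood at 521, 859.6 and 872 in the wild-type libraries, against 913, 684, 640.2 and 685.5 in the knockout-labelled ones, so that knockout-labelled library 1 lay above every other library and the remaining 3 between the wild-type values (log2 fold change -0.01, 95% interval -0.43 to 0.40, adjusted p = 0.968). Psmd1, Psmd6 and Psmd8 were apart between the groups and did not pass, at 0.31, 0.38 and 0.39, and Psmd12 overlapped at 0.43. The assembly chaperones of the cap, Psmd5, Psmd9 and Psmd10, were at 0.41, 0.17 and 0.37 with overlapping groups, and 0 of 3 passed.

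**Figure D3:**
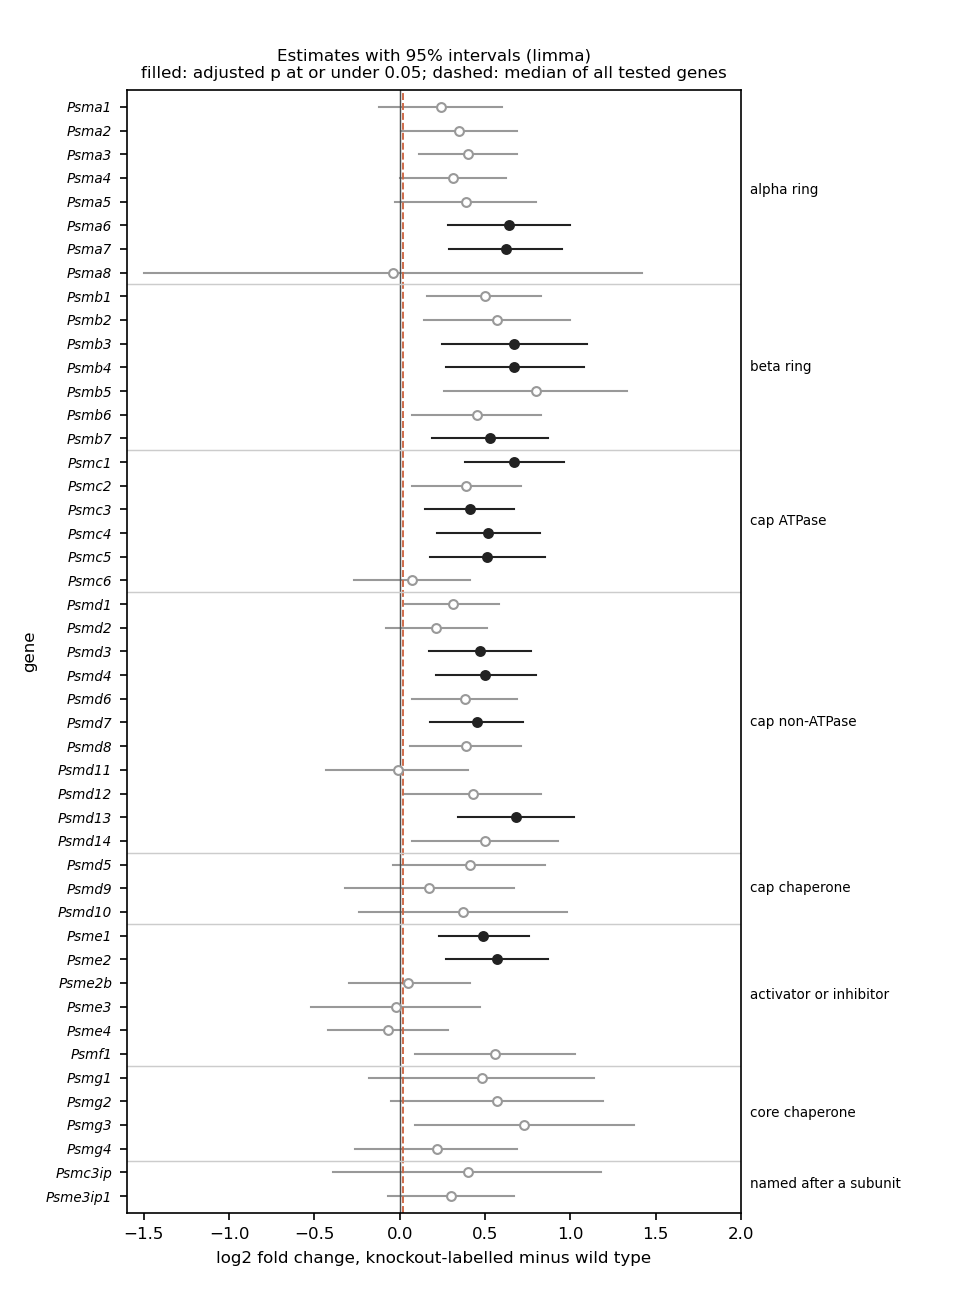
Log2 fold change (knockout-labelled minus wild type) with 95% interval from limma for the 47 tested genes, by role, filled where the adjusted p is at most 0.05. The filled points lie in the rings, the cap ATPases, the cap non-ATPases and Psme1 and Psme2, and the dashed line marks the median of all tested genes, 0.02.

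Regulators outside the core and cap moved in part. Psme1 and Psme2 encode the subunits of PA28, an activator that opens the core without ubiquitin and is induced by interferon. Psme1 was at 2209, 2459 and 2652 in the wild-type libraries, against 3392, 3672, 3021 and 3658 in the knockout-labelled ones. Psme2 was at 442, 534 and 531 in the wild-type libraries, against 769, 749.9, 713 and 746 in the knockout-labelled ones. Both were higher in all 4 knockout-labelled libraries and both were called, with log2 fold changes of 0.49 (SE 0.12, adjusted p = 0.028) and 0.57 (SE 0.14, adjusted p = 0.026). Psme2b, a copy of Psme2 that can share its reads, was at 0.05 (SE 0.17), so the split between these 2 genes is uncertain. The nuclear activators Psme3 and Psme4 were at -0.02 and -0.07 with overlapping groups. Psmf1, the inhibitor of the core, was at 197, 176 and 331 in the wild-type libraries, against 307, 331, 379.6 and 317 in the knockout-labelled ones, with overlap through wild-type library 3 (log2 fold change 0.56, SE 0.22, adjusted p = 0.0998).

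Of the 4 chaperones that help to assemble the alpha ring, Psmg1, Psmg2 and Psmg3 were lower in counts than Psmg4 in every library. Psmg3 was at 42.6, 49.1 and 63.9 in the wild-type libraries, against 90.3, 68.2, 76.9 and 113 in the knockout-labelled ones. Psmg2 was at 51.1, 48.7 and 41.7 in the wild-type libraries, against 75.3, 59.4, 76.5 and 71.6 in the knockout-labelled ones. Both were apart between groups, as was Psmg1, and Psmg4 was not, beside 14.7% of all tested genes apart in this direction. For Psmg1 the gap was very narrow, with a highest wild-type value of 69.64 and a lowest knockout-labelled value of 70.06. None of the 4 was called by limma, 1 had an unadjusted p under 0.05, and the median log2 fold change was 0.53. The estimates for Psmg3 and Psmg2 were 0.73 (SE 0.30, adjusted p = 0.112) and 0.57 (SE 0.29, adjusted p = 0.187). Psmc3ip (0.40) and Psme3ip1 (0.30), the genes named after their binding partners, did not pass either.

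Levels were compared between genes as normalised counts per kilobase of the principal transcript, the longest where several were ranked equally. Among the 31 constitutive subunits in wild type, Psmd4 was highest at 893 ± 47.0 (SD, n = 3) per kilobase, followed by Psmc3 at 821.5 ± 75.3 and Psma7 at 759.6 ± 154, and these 3 neighbours lay within their spread. Psmd14 was lowest at 162 ± 38.2, next to Psma2 at 173 ± 32.7, from which it could not be separated. The lengths taken were 2911 bases for Psma2 and 2846 for Psma3, beside 914 for Psma7. The low rank of Psma2 and the alpha ring median below, which is the Psma3 level, depend on these lengths. The range between highest and lowest was 5.50-fold in wild type and 5.83-fold in the knockout-labelled libraries. The medians per kilobase in wild type were 282 for the alpha ring, 327 for the beta ring, 345 for the cap ATPases and 363 for the cap non-ATPases. In the knockout-labelled libraries they were 372, 506, 487 and 479 in that order. The order of the 31 genes was much the same in both groups, with Spearman's rho of 0.97 across genes, which share libraries and lengths and are not independent replicates. Psmb5 moved from rank 27 to rank 21, and Psmc6 from 23 to 27. Psme1 stood above all subunits, at 2194 ± 200 and 3090 ± 274 (n = 4) per kilobase.

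The immunoproteasome genes, which replace the catalytic subunits, were all higher in the 4 knockout-labelled libraries, and 1 of 3 was called. Over all tested genes 14.7% were apart in this direction and 5.98% were called higher. Psmb8, the counterpart of Psmb5, was at 1103, 1317 and 1351 in the wild-type libraries, against 1836, 1969, 1684 and 1824 in the knockout-labelled ones and rose (log2 fold change 0.54, SE 0.13, adjusted p = 0.0232). Psmb9 and Psmb10 did not pass, at log2 fold changes of 0.50 (SE 0.18, adjusted p = 0.0819) and 0.54 (SE 0.17, adjusted p = 0.0516). Per kilobase, Psmb8 made up 78.6% ± 2.04 (SD, n = 3) of the summed Psmb8 and Psmb5 level in wild type, against 75.2% ± 5.91 (SD, n = 4) under the knockout label. Psmb9 made up 23.3% ± 3.36 and 24.0% ± 3.95 of its pair with Psmb6, and Psmb10 54.1% ± 3.49 and 54.2% ± 3.41 of its pair with Psmb7. In all 3 pairs the group means differed by less than the SD of the knockout-labelled group.

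Stretches before the gene starts are shown for the catalytic subunits and the called genes that hold a motif linked to proteasome genes. Each is 80 bases long, 5′ to 3′ on the gene's strand, from RefSeq on build GRCm38.p6, with matches in capitals. The motifs were TGACNNNGC, the core of the antioxidant response element to which NRF1 binds, and CCAAT, the CCAAT box, both searched on both strands (the second reads ATTGG on the other strand) in the 250 bases before each start.
Psmb5, chr14:54617999-54618078, minus strand: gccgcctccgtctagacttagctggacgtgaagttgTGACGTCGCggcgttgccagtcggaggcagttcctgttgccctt
Psmb6, chr11:70525277-70525356, plus strand: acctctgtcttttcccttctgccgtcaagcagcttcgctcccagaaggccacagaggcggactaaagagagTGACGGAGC
Psma6, chr12:55384142-55384221, plus strand: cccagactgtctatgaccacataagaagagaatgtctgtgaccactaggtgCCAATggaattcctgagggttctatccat
Psma7, chr2:180042619-180042698, minus strand: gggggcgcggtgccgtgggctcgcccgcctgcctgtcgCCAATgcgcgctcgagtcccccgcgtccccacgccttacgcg
Psmb3, chr11:97703332-97703411, plus strand: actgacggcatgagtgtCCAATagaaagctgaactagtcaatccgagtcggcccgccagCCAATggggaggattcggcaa
Psmc1, chr12:100109989-100110068, plus strand: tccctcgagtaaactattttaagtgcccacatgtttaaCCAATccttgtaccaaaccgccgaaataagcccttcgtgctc
Psmd4, chr3:95042668-95042747, minus strand: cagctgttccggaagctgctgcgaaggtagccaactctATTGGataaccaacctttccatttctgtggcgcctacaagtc

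Promoters were listed for 40 of the 48 genes, and for 29 of the core and cap genes. TGACNNNGC was in 5 of 31 core and cap promoters (16.1%), those of Psmb5, Psmb6, Psmc6, Psmd9 and Psmd12, beside 10.2% of all 32851 promoters. None of the 9 called core and cap genes with a listed promoter held it. CCAAT was in 12 of the 31 (38.7%), beside 33.8% of all promoters, and in the promoters of 5 of the 9 called genes, Psma6, Psma7, Psmb3, Psmc1 and Psmd4. It occurred in 2 places in Psmb3 and in Psma6, of which the second in Psma6 is outside the stretch shown. In Psmb5 and Psmb6, which were apart between groups but not called, TGACNNNGC lay close to the start. Matches describe these letters in this window and say nothing of binding.

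Other genes of the pathway were given by lists. Of 8 further proteins of the cap or its partners 1 rose, Sem1, the smallest cap subunit, at 628, 1021 and 955 in the wild-type libraries, against 1266, 1261, 1110 and 1384 in the knockout-labelled ones (log2 fold change 0.56, SE 0.17, adjusted p = 0.0477). Over the 23 fits its estimate ran from -0.11 to 0.81. The ubiquitin receptor gene Adrm1 was at 0.26 (adjusted p = 0.181) and the deubiquitinase gene Uchl5 at 0.65 (adjusted p = 0.0773), both higher in all 4 knockout-labelled libraries. Of the 8 estimates 3 were below 0, at -0.30 for Ecpas (adjusted p = 0.129), which was lower in all 4 knockout-labelled libraries, -0.22 for Zfand5 and -0.11 for Ube3c. The median of that list was 0.24. Of 6 genes of maturation and control, with a median of 0.20, none was called by limma and 1 had an unadjusted p under 0.05. Nfe2l1, which encodes NRF1, was at 4849, 6036 and 5884 in the wild-type libraries, against 6205, 6672, 6057 and 6898 in the knockout-labelled ones, apart between groups but not called (log2 fold change 0.21, SE 0.12, adjusted p = 0.24). Pomp, which guides assembly of the core, was at 275, 379 and 640 in the wild-type libraries, against 598, 621, 683.5 and 643 in the knockout-labelled ones. Its wild-type libraries spread widely, the groups overlapped, and it did not pass (log2 fold change 0.65, SE 0.23, adjusted p = 0.0736).

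Among genes that encode ubiquitin itself, the polyubiquitin gene Ubb rose (log2 fold change 0.49, SE 0.12, adjusted p = 0.028), as did Rps27a, which fuses ubiquitin to a ribosomal protein (log2 fold change 0.50, SE 0.15, adjusted p = 0.0483). The lowest estimates over the 23 fits were 0.09 for Ubb and -0.12 for Rps27a. The COP9 signalosome, a complex related to the proteasome lid that removes Nedd8 from ubiquitin ligases, had 1 of 10 genes called, Cops2 (log2 fold change 0.45, SE 0.13, adjusted p = 0.0442), and a median of 0.36. By the same measure 37.1% of core and cap genes and 5.98% of all tested genes were called higher.

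Log2 fold changes were lower in longer genes among the protein-coding genes divided by length below. The median exonic length was 2370 bases for the tested core genes and 2938.5 for the cap genes, beside 4136 for all tested genes. Protein-coding genes averaging 100 normalised counts or more were divided by exonic length. The median log2 fold change stood at 0.64 in the class under 1000 bases (139 genes), 0.47 from 1000 to under 2000 (736 genes), 0.28 from 2000 to under 4000 (2651 genes), 0.12 from 4000 to under 8000 (4021 genes) and 0.00 from 8000 bases up (2141 genes). Calls of higher were made for 46.8%, 29.3%, 13.1%, 5.74% and 3.18% of these classes in turn. The groups were apart, with the knockout-labelled libraries higher, for 59.7%, 51.6%, 29.9%, 17.5% and 9.39%, and the estimate was above 0 for 92.8%, 91.2%, 79.3%, 64.7% and 49.8%.

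Of the 34 core and cap genes that reached that mean, Psmb5 was the only one under 1000 bases, at 0.80. From 1000 to under 2000 bases 4 of 8 were called, 6 were apart and the median was 0.54. From 2000 to under 4000 bases 8 of 17 were called, 12 were apart and the median was 0.43. From 4000 to under 8000 bases 1 of 8 was called, 4 were apart and the median was 0.35. In all, 28 of the 34 lay above the median of their class, with 5 of 8, 15 of 17 and 7 of 8 in the 3 classes from 1000 to under 8000 bases. With the length trend removed, limma called no core or cap gene, 2 core and 3 cap genes had an unadjusted p under 0.05, and the medians were 0.17 and 0.15 beside -0.11 for all genes. Beyond these values the part of length in the calls was not tested.

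**Figure D4:**
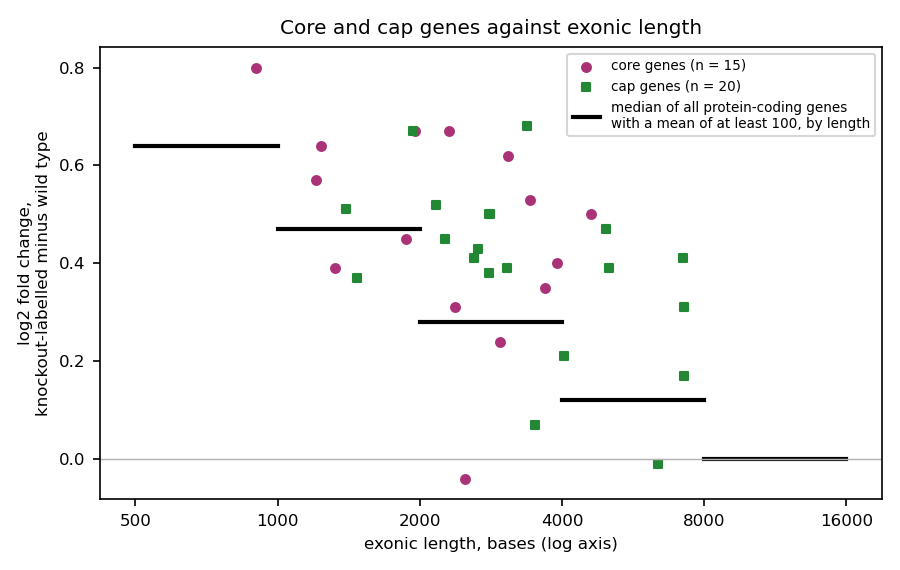
Log2 fold change of the 15 core (circles) and 20 cap (squares) genes against exonic length in bases (log axis), with black lines for the median of all protein-coding genes averaging 100 or more in each length class (the first and last classes are open-ended and drawn to the edge). The lines fall from 0.64 to 0.00, and 28 of 34 core and cap genes with that mean lie above their line.

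With the receptor gene value as a covariate, limma called 0 genes of any kind, with 0 core and 1 cap gene at an unadjusted p under 0.05. The medians were then 0.11 for the core and 0.13 for the cap, beside -0.04 for all genes, and 9 of 15 core and 12 of 20 cap estimates were above 0. That covariate separates the groups, so it and the genotype label cannot be told apart.

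**Figure D5:**
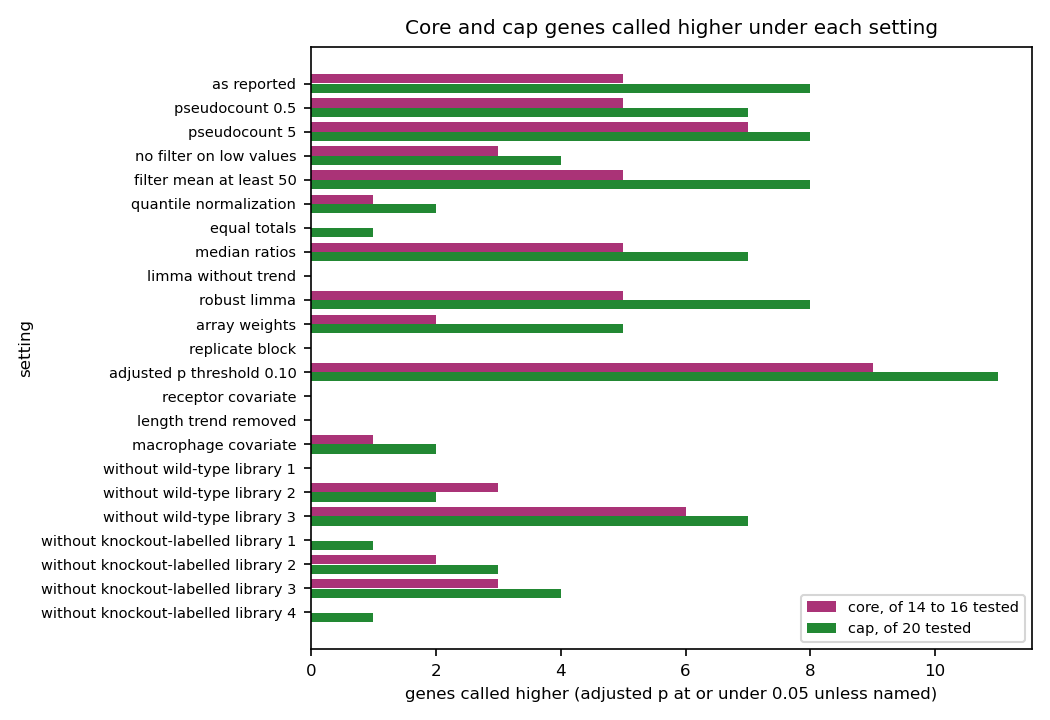
Number of core (purple) and cap (green) genes called higher in the fit as reported and in 22 alternative settings (bars from 0). The counts are 5 and 8 as reported and 0 and 0 in limma without trend, with the replicate block, with the receptor covariate, with the length trend removed and without wild-type library 1.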

How the data were processed

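Bulk RNA sequencing gave 1 deposited table per library. Per the submitters' processing notes the tools were kallisto, featureCounts, DESeq and DESeq2, with no role or version, on build GRCm39. The values are the authors' normalised counts, used as a scaled signal. They were not whole: 24.4% to 48.6% of the low values lay within 0.02 steps of a whole multiple of the smallest repeated value. Whole reads were thus not recovered, count tests were not run, and no counting interval is given. The step put the reads per library at 14736938 to 18020318 in wild type and 11260179 to 14156874 under the knockout label. Genes at 0 numbered 2794 to 6551 and 7301 to 9306. Neither overlapped between the groups, so depth and the genotype label cannot be told apart. Depth limits low values such as those of Psma8, Psmb11 and Psmg2.

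A pseudocount of 1 was added before taking log2, so fold changes of low genes are understated. The 16931 genes with a mean of at least 10 were fitted with limma 3.58.1 in R 4.3.3 (lmFit, eBayes with a mean-variance trend), with adjustment over all of them. On simulated data with 200 changed genes among 16931, 38 of 100 changed by 1 log2 unit and 72 of 100 changed by 2 were called, with 6 false calls. Smaller changes are thus often missed over such genes. The changed genes were drawn at random from all 16931, low ones included, so these rates do not describe the core and cap genes alone. The groups share replicate numbers, but deviations of same-numbered libraries were not positively correlated, so no block was used.

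Exonic length is the union of exons in GENCODE M21, and levels per kilobase use the principal transcript, the longest where several were ranked equally. Both are on GRCm38, an older build than the submitters', matched by symbol for all 48 genes, and 97.7% of all symbols had a length. The sources used here do not say whether reads were counted by strand.

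Named with values in every library are the catalytic subunits, Psmd2, Psmd4, Psmd14, Psma8 and Psmb11, and any gene called lower, of which there were 0. The 2 genes with the smallest p in each role are named as well. These roles were alpha ring, beta ring, cap ATPases, cap non-ATPases, activators with the inhibitor, and core chaperones. For this choice the cap chaperones were placed with the cap non-ATPases. Psma3, Psmb8, Psmd11, Psmf1, Psmc6, Sem1, Nfe2l1 and Pomp are also given in full, of which Psma3, Psmd11, Psmf1 and Psmc6 were chosen after their values were seen. The genes and lists were chosen with earlier results of these data known. Some genes of the ubiquitin pathway are not reported here. The 22 alternatives covered pseudocounts, filters, scalings, limma options, a replicate block, covariates, length and each library left out.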

Additional observations from a re-analysis of the deposited data

Results flagged for a closer look

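Among 54 sets of 4 knockout-labelled values checked for a value far from the others, 2 stood out, and chance gives about 1 in 20. Psmd11 in knockout-labelled library 1 was at 913 normalised counts, beside 640.2 to 685.5 in the other 3. The mean log2 value of the core genes was 9.03 in knockout-labelled library 4, beside 8.79 to 8.81 in the other 3. That mean includes Psma8, which was at 26.5 in this library and at 7.45 to 11.4 in the others.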

How the results depend on the processing

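Core and cap medians stayed above 0 in all 22 alternatives (0.11 to 0.59 and 0.13 to 0.52), but the calls did not hold. Limma without trend, robust limma and the threshold of 0.10 do not change the estimates, so they cannot test the medians. Core and cap genes called higher were 3 and 4 with no filter, 1 and 2 with quantile normalization (cap median 0.29; all genes 447 higher, 655 lower), 0 and 1 with equal totals (medians 0.27 and 0.18), 2 and 5 with array weights, 1 and 2 with a macrophage covariate, and 9 and 11 at an adjusted p of 0.10. They were 0 and 0 in limma without trend (9 and 10 at an unadjusted p under 0.05; all genes 0 higher, 17 lower), with the receptor covariate (0 and 1; medians 0.11 and 0.13) and with the length trend removed (2 and 3; medians 0.17 and 0.15; all genes 228 higher, 1335 lower). With the replicate block in limma they were also 0 and 0, with 8 and 8 at an unadjusted p under 0.05. Over all genes the block gave 35 higher and 84 lower. Only the knockout-labelled group has a library 4, so the block takes up that library whole. The medians, 0.44 and 0.37, were the same as without it, so for the estimates the block is not a separate check. Deviations of same-numbered libraries correlated at -0.08, -0.05 and -0.12, and 0 of 3 wild-type libraries correlated best with their own number, so the libraries share only a number. Leaving out 1 library gave 0 to 6 core and 0 to 7 cap genes, with medians of 0.37 to 0.59 and 0.31 to 0.48. Without wild-type library 1 all genes gave 19 higher and 24 lower. Psmd2 reversed to -0.01 with equal totals, and with the receptor covariate Psmb4 was at -0.02, Psmb6 at -0.24, Psmd14 at -0.18 and Psmd2 at -0.16. For the 11 named genes called as reported, 122 of 242 values stayed called, 119 were no longer called and 1 reversed. The 6 not called as reported gained a call in 4 of 132. A mean of at least 50 gave 1081 higher and 563 lower over all genes. The cause of these changes was not tested. Counting error cannot be given, since whole reads were not recovered.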
